A study of Homo sapiens with 3 samples.

Results

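The homeotic genes of the 4 human HOX clusters were followed in A375 cells across serum-free medium and the secretomes of young and old adipocytes. The members are the 39 protein-coding genes of the count table whose symbol is HOXA, HOXB, HOXC or HOXD followed by a number, out of 58037 genes in all. Of these, 11 belong to HOXA, 10 to HOXB, 9 to HOXC and 9 to HOXD. A375 is an established human melanoma line. The control culture received serum-free DMEM, the YA culture the secretome of young adipocytes and the OA culture the secretome of old adipocytes, for 24 h by the description of the series, while the protocol shared by the samples gives a range whose upper end is longer. Both secretomes had been collected in serum-free DMEM from adipocytes that were differentiated in culture from subcutaneous preadipocytes of donors, and the labels do not say how many donors stood behind each. Each group was 1 culture and 1 library, so no difference below has a replicate check, no p-value is given, and every comparison is between libraries and not between conditions.

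HOX genes encode homeodomain transcription factors that set position along the body axis. Within a cluster, the order of the genes on the chromosome follows the order in which they are used from head to tail, and adult cells keep much of the HOX pattern of the place they come from through Polycomb repression and Trithorax activity. Genes of the same number in different clusters (paralogues) descend from a single ancestral gene, and their proteins bind DNA together with the TALE cofactors of the PBX, MEIS and PKNOX families, while retinoic acid is a classical inducer of the genes at the head end of a cluster.

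The part of the homeobox that encodes the DNA-reading helix is shown for HOXD8 and HOXB9, which had clear differences between libraries, and for the HOXC and HOXD paralogues of HOXB9, whose intervals against control held 1. Each line is 54 bases of the coding strand, 5′ to 3′, from the GENCODE 29 transcript, and the capitals mark the 18 bases that encode the same 6 residues in all 39 members.
HOXD8: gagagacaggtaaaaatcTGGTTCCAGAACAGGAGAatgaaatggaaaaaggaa
HOXB9: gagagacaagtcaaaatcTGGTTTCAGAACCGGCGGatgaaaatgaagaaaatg
HOXC9: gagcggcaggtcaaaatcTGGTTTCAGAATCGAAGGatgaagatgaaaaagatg
HOXD9: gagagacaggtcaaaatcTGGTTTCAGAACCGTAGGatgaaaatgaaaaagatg
On GRCh38 these segments lie in coding exons, at chr17:48622924-48622977 (minus strand) for HOXB9 and chr2:176131451-176131504 (plus strand) for HOXD8. The 6 residues are spelled in 30 different ways across the 39 members. Over the whole homeobox of 180 bases, the median identity was 81.7% between the 42 pairs of the same paralogue group and 60.6% between the 699 other pairs. The HOXB9 homeobox shared 84.4% of its bases with HOXD9 and 82.2% with HOXC9. The longest exact run in the coding sequences of any pair was 62 bases, in HOXB3 and HOXD3. It was 40 bases for HOXB9 and HOXD9. How reads that match more than 1 member were counted is not given in the sources used here.

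Totals of 21448195, 21306558 and 18089008 counts stood behind the control, YA and OA libraries. OA was the shallowest, so an equal raw count stands for a higher normalised level there. Fold changes of single genes are of counts divided by size factors, after a pseudocount of 1 was added. They are given with 95% Clopper-Pearson intervals that cover counting error only. The intervals and the folds of summed counts use no pseudocount. At low counts a fold therefore sits nearer 1 than the ratio its interval describes. Fold changes of single genes cover the 14413 genes whose normalised counts averaged 20 or more. The defining markers of the melanocyte lineage were mostly near 0 in these cells: SOX10 had 0 counts in all 3 libraries, which allows up to 0.140, 0.141 and 0.166 CPM (counts scaled by the library total), and TYR, DCT, PMEL, TYRP1 and MLANA had 0 to 22. The markers that were plentiful were CSPG4 (19441 counts in control), NGFR (3060), MITF (1221) and S100B (843).

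Most HOX genes were detected. More than 3 counts were present for 33, 32 and 34 of the 39 members in control, YA and OA, and for 32 in all 3 libraries. That is 82.1% of the members, against 67.4% of 19950 protein-coding genes. All 9 HOXC genes, 10 of 11 HOXA genes and 9 of 10 HOXB genes were above this level in every library, but only 4 of 9 HOXD genes were. HOXB1, the head-end gene of its cluster, had 0 counts in each library. HOXA7, HOXD4 and HOXD11 never passed 3 counts, and HOXD1, HOXD3 and HOXD12 had at most 5. HOXA9 (10, 10 and 7 counts in control, YA and OA), HOXA11 (17, 21 and 14) and HOXC5 (16, 6 and 8) were low in all libraries. These 10 genes fell under the minimum for fold changes, which left 29 members.

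**Figure D1:**
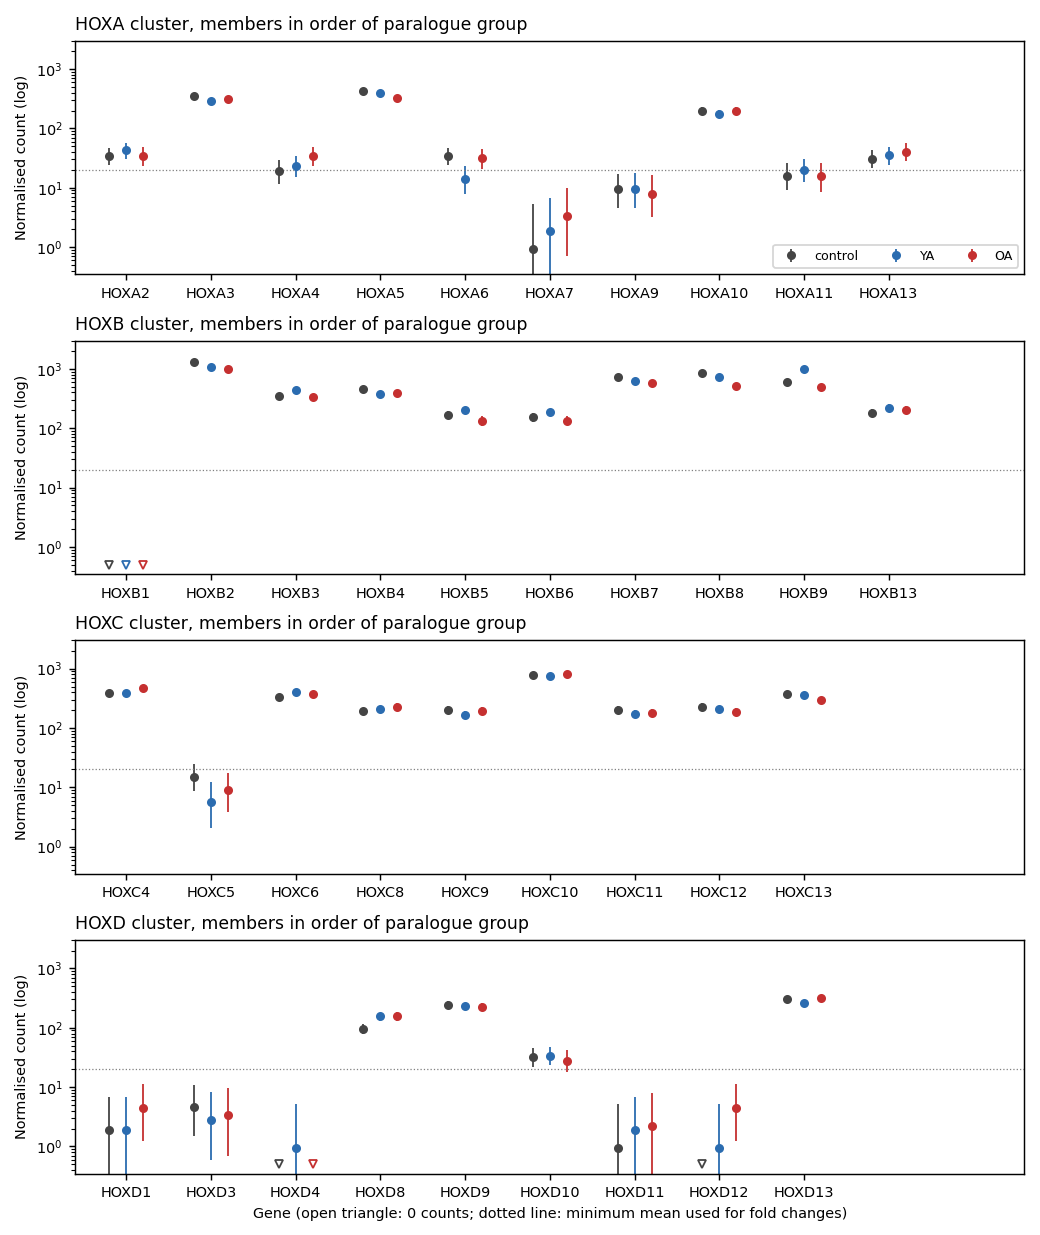
Normalised counts (log axis) of 38 of the 39 HOX genes in the control, YA and OA libraries, 1 panel per cluster, with 95% Poisson intervals as bars and open triangles for 0 counts. The 3 libraries lie close together for most genes, HOXB1 is at 0 in each, and the HOXD cluster is split between 4 expressed genes and 5 at or near 0.

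Per length of exon, the HOXB cluster held the highest levels. On the scale of TPM (transcripts scaled to gene length and library), HOXB2 stood first in every library, at 114 TPM in control (95% Poisson interval 108 to 120), 92.5 with YA and 87.5 with OA. HOXB7 came second, at 99.3, 82.9 and 76.9 TPM. Its interval lay below that of HOXB2 in control (92.5 to 107) and overlapped it in YA and OA. In control HOXB8 (84.0 TPM, 78.6 to 89.7) and HOXC10 (68.9, 64.3 to 73.8) followed, and then HOXA5 (51.8, 47.2 to 56.8) and HOXB9 (47.4, 43.8 to 51.3), whose intervals overlap. In YA, HOXB9 held the third place at 77.9 TPM (73.3 to 82.8), with an interval that overlapped those of HOXB7 (76.7 to 89.4) and HOXB8 (65.8 to 76.0). In OA, HOXC10 held the third place at 70.5 TPM (65.4 to 75.8), above HOXB8 at 51.5 (46.9 to 56.4), while HOXB9 (39.3) and HOXA5 (39.2) could not be ordered. The median of the 29 members was 17.0, 19.9 and 14.9 TPM in control, YA and OA, and that of all genes tested was 21.1, 20.4 and 21.1.

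Summed over a cluster, HOX counts were close to control in YA apart from HOXA, and were lower for HOXA and HOXB in OA. The 39 genes together had counts of 9991, 9826 and 7483 in control, YA and OA, or 466, 461 and 414 CPM. The summed level was 0.986-fold of control in YA (0.959 to 1.01) and 0.892-fold in OA (0.866 to 0.919). The gap lay mostly in HOXB, whose 5071, 5118 and 3389 counts gave 1.01-fold of control in YA (0.974 to 1.05) and 0.796-fold in OA (0.762 to 0.832). The HOXB share of all HOX counts was 50.8%, 52.1% and 45.3% in the 3 libraries. HOXC, with 2887, 2816 and 2441 counts, was at 0.978-fold in YA (0.929 to 1.03) and 1.01-fold in OA (0.954 to 1.06). HOXA, with 1310, 1164 and 989 counts, was at 0.891-fold in YA (0.823 to 0.965) and 0.899-fold in OA (0.827 to 0.977). Without HOXA5, its most counted gene, the HOXA sum was at 0.887-fold in YA and 0.972-fold in OA. HOXD, with 723, 728 and 664 counts, was at 1.01-fold (0.910 to 1.12) and 1.09-fold (0.983 to 1.22). The intervals of HOXC and HOXD held 1 in both secretomes. In RNA from a whole culture, fewer cells that express a gene and less RNA per cell cannot be told apart.

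**Figure D2:**
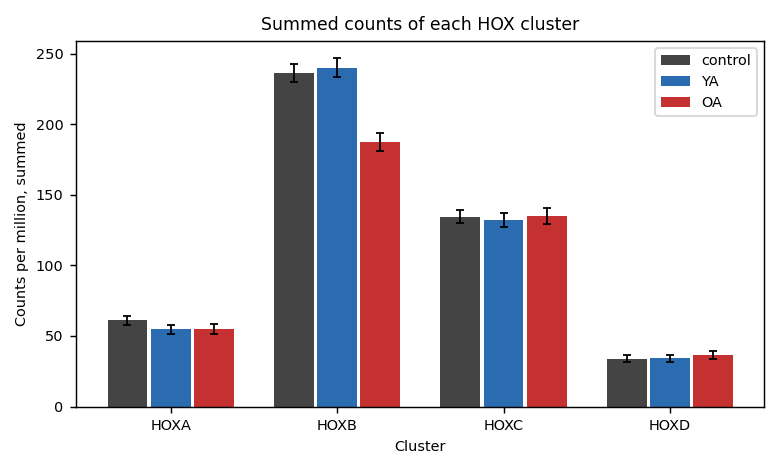
Summed CPM of the members of each HOX cluster in the control, YA and OA libraries, with 95% counting intervals as bars. HOXB stands at 236, 240 and 187 CPM in the 3 libraries, while HOXC stays between 132 and 135 and HOXA is highest in control.

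Sorted by position along the axis in place of cluster, the 8 genes of paralogue groups 1 to 3 were at 0.909-fold of control in YA (0.856 to 0.965) and 0.839-fold in OA (0.786 to 0.894). The 15 genes of groups 4 to 8 were at 0.956-fold (0.915 to 0.999) and 0.878-fold (0.838 to 0.921). The 16 genes of groups 9 to 13, used toward the tail end, were at 1.07-fold in YA (1.02 to 1.12) and 0.942-fold in OA (0.897 to 0.990). Against OA, YA was at 1.08-fold, 1.09-fold and 1.14-fold in these sets. These values moved when 1 HOXB gene was left out. Without HOXB9, groups 9 to 13 were at 0.942-fold of control in YA (0.895 to 0.992) and at 0.978-fold for YA against OA (0.925 to 1.03). Without HOXB2, groups 1 to 3 were at 1.04-fold in YA (0.948 to 1.14) and 0.937-fold in OA (0.848 to 1.04). Without HOXB8, groups 4 to 8 were at 0.95-fold in OA (0.901 to 1.00) and at 1.04-fold for YA against OA (0.983 to 1.09). The sums without a gene were chosen after the values had been seen.

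The members past 1.2-fold were counted beside all genes tested. In YA against control 7 of 29 members were at least 1.2-fold higher (HOXA2, HOXA4, HOXB3, HOXB6, HOXB9, HOXB13 and HOXD8), which is 24.1%, against 17.4% of all genes tested. Another 5, or 17.2%, were at least 1.2-fold lower (HOXA3, HOXA6, HOXB2, HOXB4 and HOXC9), against 16.4%. In OA against control 3 members, or 10.3%, were higher (HOXA4, HOXA13 and HOXD8), against 21.1%, and 7, or 24.1%, were lower (HOXA5, HOXB2, HOXB5, HOXB7, HOXB8, HOXC12 and HOXC13), against 21.5%. For YA against OA 8 members, or 27.6%, were higher, against 23.0%, and 3, or 10.3%, were lower, against 21.5%. The 8 were HOXA2, HOXB3, HOXB5, HOXB6, HOXB8, HOXB9, HOXC13 and HOXD10, and the 3 were HOXA4, HOXA6 and HOXD13. Just outside the threshold, HOXB5 in YA was at a log2 fold change of 0.26. Exons free of any overlap with another annotated gene belong to 12 of the 29 members.

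With the interval required to lie wholly beyond 1.2-fold, 5 of the 29 members were called in any comparison. HOXB9 and HOXD8 were higher in YA (6.90%, against 6.03% of all genes tested) and HOXA6 was lower (3.45%, against 4.44%). HOXD8 was higher in OA (3.45%, against 9.04%) and HOXB8 was lower (3.45%, against 9.08%). HOXB5, HOXB8 and HOXB9 were higher in YA than in OA (10.3%, against 10%), and 0 members were lower (against 9.03%). The median log2 fold change of the members was -0.07 in YA, -0.11 in OA and 0.05 for YA against OA. The median size of a change, with its sign set aside, was 0.24, 0.18 and 0.20 for the members and 0.17, 0.21 and 0.23 for all genes. Of the 29 members, 10 (34.5%) were within 1.2-fold of control in both secretomes, against 44.0% of all genes tested, and 3 (10.3%) were past it in the same direction in both (HOXA4, HOXB2 and HOXD8), against 15.1%. Both comparisons share the control library.

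**Figure D3:**
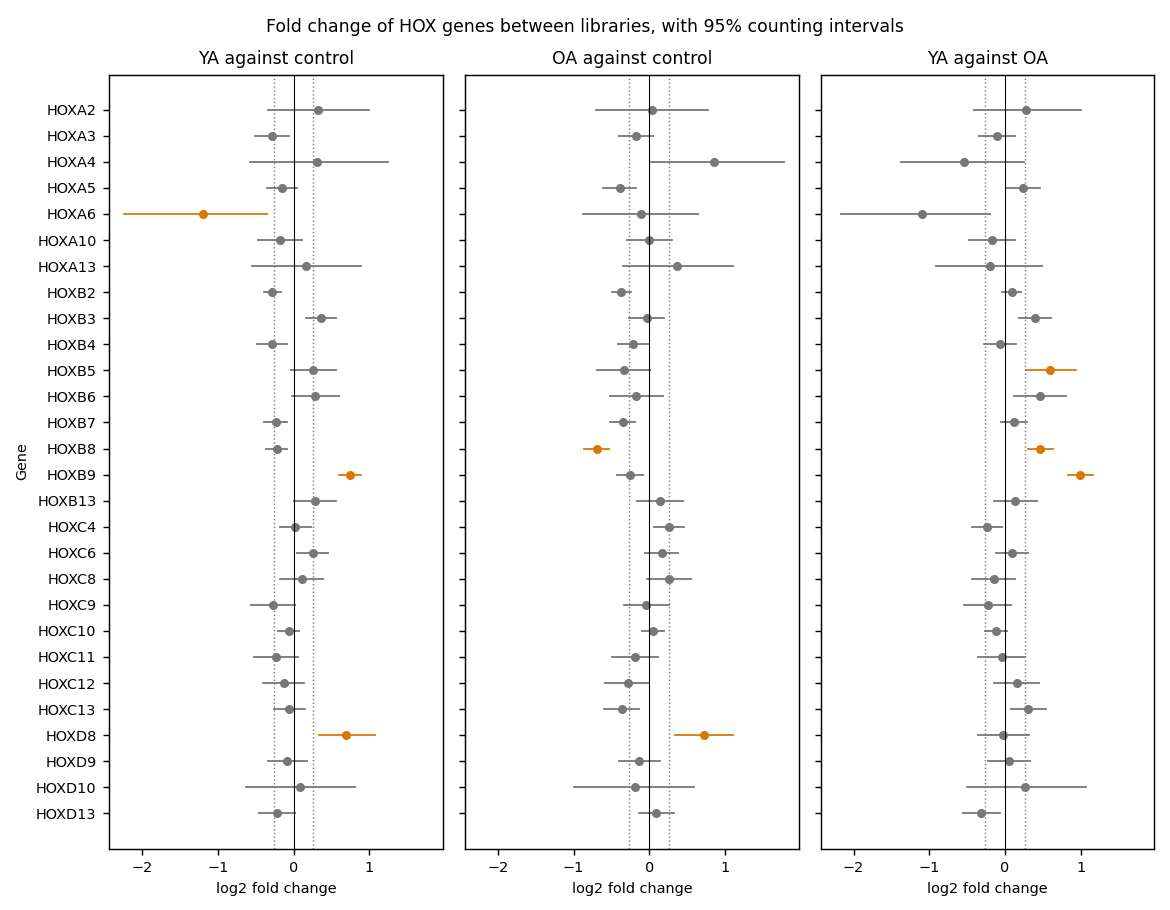
Log2 fold changes of 28 of the 29 HOX genes past the minimum for YA against control, OA against control and YA against OA, with 95% counting intervals as bars, dotted lines at 1.2-fold and orange for intervals wholly beyond it. HOXB9 and HOXD8 lie to the right and HOXA6 to the left in YA, HOXD8 right and HOXB8 left in OA, and HOXB5, HOXB8 and HOXB9 right for YA against OA.

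Markers of other cells were measured beside these results. For the marker lists, the shares of all genes tested were 17.4% higher and 16.4% lower in YA, and 21.1% and 21.5% in OA. Of the adipocyte markers, 4 of 8 were past the minimum, with 4 at least 1.2-fold higher in YA, and 2 higher and 1 lower in OA. The 8 adipocyte markers summed to 702, 1263 and 421 counts in control, YA and OA, and the 8 fibroblast and preadipocyte markers to 882, 1101 and 603. Of the genes that define adipocytes, ADIPOQ had 1, 0 and 0 counts and LEP 0 in each. PLIN1 had 2, 5 and 2 and FABP4 16, 15 and 2. The lipid droplet gene CIDEC had 6, 31 and 36, at 4.55-fold in YA (2.13 to 15.2) and 6.22-fold in OA (2.98 to 20.8). Its normalised count in control was 5.65, so it passed the minimum only through YA and OA, where it was high. LPL had 353, 583 and 30. PLIN4 had 284, 579 and 321, at 2.04-fold in YA (1.77 to 2.37) and 1.35-fold in OA (1.14 to 1.59). GPD1 had 40, 50 and 30, and its interval in YA held 1 (0.811 to 1.95). Among the fibroblast collagens, COL1A2 had 1, 1 and 2 and COL3A1 0, 1 and 1, while COL1A1 had 75, 117 and 84 (1.56-fold in YA, 1.16 to 2.12). DCN, a matrix proteoglycan of fibroblasts, had 13, 138 and 24, with a normalised count in control (12.2) under the minimum. PDGFRA went the other way in YA, with 76, 20 and 51 (0.274-fold, 0.153 to 0.437). LUM had 66, 101 and 58, PDGFRB 515, 568 and 334, and FBLN1 136, 155 and 49. Of the fibroblast markers, 6 of 8 were past the minimum, with 3 higher and 1 lower in YA, and 2 higher and 3 lower in OA. The 11 melanocyte and melanoma markers summed to 24618, 33193 and 18974. Of these markers, 5 were past the minimum, with 2 higher and 2 lower in YA, and 0 higher and 2 lower in OA. All 3 sums were highest in YA and lowest in OA, the shallowest library. Among the members past the minimum, raw counts of HOXA2, HOXB3, HOXB5, HOXB6, HOXB9, HOXB13, HOXC6 and HOXD10 had this order. After scaling, HOXA2, HOXB13 and HOXC6 stood above control in OA. Without CSPG4 the melanoma sum was 5177, 4191 and 2766, highest in control, and without LPL the adipocyte sum was 349, 680 and 391, with OA above control. The markers' part in the HOX results was not tested.

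HOXB held the clearest differences between single members. HOXB9, used in the lower trunk, had counts of 632, 1053 and 445 in control, YA and OA. YA alone was high. The fold change was 1.67 in YA (1.51 to 1.85), 0.839 in OA (0.741 to 0.948) and 1.99 for YA against OA (1.78 to 2.23). Its share of HOXB counts was 12.5% in control, against 20.6% with YA and 13.1% with OA. No other HOXB gene took a share of the cluster in YA that lay as far from control. HOXB8, which can hold myeloid progenitors in an undifferentiated state when forced, had 890, 760 and 463 counts. OA was the lowest library, at 0.620-fold of control (0.553 to 0.694), with YA between the others at 0.857-fold (0.776 to 0.945). The share of HOXB8 in the cluster was 17.6%, 14.9% and 13.7%. HOXB8 and HOXB9 are neighbours on chromosome 17, and no exon base of either overlaps another annotated gene.

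HOXB7, a gene long studied in melanoma for its control of a fibroblast growth factor, had 784, 663 and 515 counts, or 0.848-fold in YA (0.764 to 0.942) and 0.783-fold in OA (0.699 to 0.876). It was lower than control in both libraries. HOXB13, a partner of the androgen receptor in prostate, had 194, 235 and 180 counts and was at 1.21-fold in YA (1.00 to 1.48) and 1.10-fold in OA (0.897 to 1.36).

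The head-ward HOXB genes split in YA. HOXB2, a hindbrain gene, had counts of 1378, 1131 and 896 in control, YA and OA, at 0.823-fold (0.760 to 0.891) and 0.775-fold (0.711 to 0.843). HOXB4, known for expanding blood stem cells, had 490, 401 and 354 counts, at 0.821-fold (0.718 to 0.939) and 0.861-fold (0.749 to 0.989). Both genes were below control in each secretome. HOXB3, a hindbrain gene whose annotated span encloses HOXB4, had 364, 466 and 298 counts. YA was its high library, at 1.28-fold (1.12 to 1.48), and OA was at 0.975-fold (0.834 to 1.14). HOXB5 had 178, 213 and 118 counts and HOXB6 had 161, 196 and 120. Both were highest in YA and lowest in OA. YA against OA was 1.52-fold for HOXB5 (1.21 to 1.92) and 1.37-fold for HOXB6 (1.09 to 1.74), while their intervals against control held 1. Of the exon bases of HOXB6, 32.9% overlap another annotated gene, against 13.2% for HOXB3 and 17.1% for HOXB4. HOXB3 shares exon bases with HOXB4, HOXB6, HOXB-AS1 and HOXB-AS3.

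Of the 9 HOXB genes past the minimum, the OA intervals of 5 (55.6%) lay wholly below 1, against 24.7% of all genes tested, and 0 lay wholly above, against 26.6%. In YA, 3 intervals (33.3%) lay wholly above 1, against 20.6%, and 4 (44.4%) wholly below, against 25.6%. Higher counts make an interval narrower, and the shares for genes with counts like those of HOXB were not taken. The median log2 fold change of HOXB was 0.26 in YA, -0.25 in OA and 0.40 for YA against OA. For all genes tested it was -0.02, 0.01 and -0.01. The YA median of HOXB was the value of HOXB5, whose interval held 1. HOXB was the cluster with the widest difference between the secretomes by the median for YA against OA. That median was -0.14 for HOXA, -0.08 for HOXC and 0.02 for HOXD. Whether the clusters differ was not tested, since each group had 1 library. Without HOXB9, the HOXB sum in YA was 0.918-fold of control in place of 1.01, and YA against OA was 1.16 in place of 1.27. Without HOXB8, the HOXB sum in OA was 0.834-fold in place of 0.796. These sums were also chosen after the values had been seen.

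**Figure D4:**
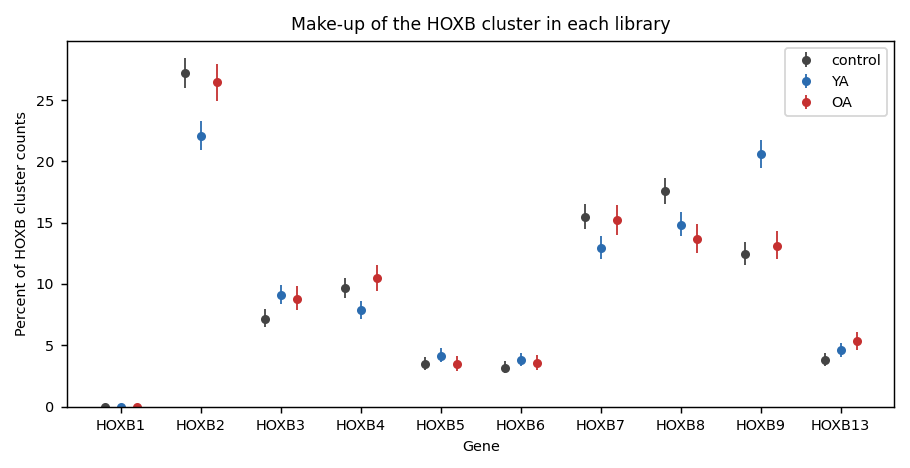
Share of each gene in the counts of the HOXB cluster (percent) in the control, YA and OA libraries, with 95% Clopper-Pearson intervals as bars. HOXB9 stands at 12.5% in control, 20.6% with YA and 13.1% with OA, and HOXB2 is the largest share in each library.

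HOXD8 was the member that stood above control in both secretomes by an interval clear of the threshold. This gene of the middle of the HOXD cluster had counts of 101, 164 and 140 in control, YA and OA. It was at 1.62-fold in YA (1.26 to 2.11) and 1.64-fold in OA (1.27 to 2.15), both against the same control library, and YA against OA was 0.986 (0.782 to 1.24). HOXD9, its neighbour, had 261, 246 and 200 counts and stayed at 0.946-fold and 0.913-fold, with intervals that held 1. HOXD13, required for digits, had 319, 273 and 286 counts and was at 0.859-fold in YA (0.728 to 1.01) and 1.07-fold in OA (0.907 to 1.26). HOXD10, a gene of limb and lumbar cord, had 34, 36 and 25 counts, at 1.06-fold in YA (0.646 to 1.75) and 0.880-fold in OA (0.501 to 1.51). Of all HOXD counts, HOXD8 took 14.0%, 22.5% and 21.1%.

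With 8 HOXA genes past the minimum, 2 stood at least 1.2-fold above control and 2 below in YA, and 2 above and 1 below in OA. The shares of all genes tested were 17.4% above and 16.4% below in YA, and 21.1% and 21.5% in OA. HOXA5, needed for lung development, had counts of 457, 410 and 293 in control, YA and OA, at 0.900-fold (0.786 to 1.03) and 0.764-fold (0.657 to 0.886). OA was the low library. HOXA3, a gene of thymus and parathyroid development, had 379, 310 and 282 counts, at 0.821-fold (0.704 to 0.956) and 0.887-fold (0.757 to 1.04). HOXA10, a gene of the female reproductive tract, had 212, 187 and 178 counts and did not differ from control by an interval clear of 1. Other HOXA genes rested on few counts. HOXA6 had counts of 36, 15 and 28 in control, YA and OA, and was at 0.435-fold in YA (0.213 to 0.783) and 0.929-fold in OA (0.545 to 1.56). YA against OA was 0.468 (0.224 to 0.874). Of its exon bases 40.1% overlap other annotated genes, among them HOXA-AS3, and a count of 15 leaves a wide interval. HOXA4 had 20, 25 and 31 counts, at 1.80-fold in OA (1.02 to 3.42), with 47.3% of its exon bases overlapped. HOXA2, a gene of the second pharyngeal arch, had 36, 45 and 31 counts, and HOXA13, a digit and genital gene, had 33, 37 and 36. All intervals of these 2 genes held 1.

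Of 8 HOXC genes past the minimum, 7 were within 1.2-fold of control in YA and 6 in OA. Of the 14413 genes tested, 9542 were within it in YA and 8273 in OA. HOXC10, its most counted gene, had counts of 830, 790 and 720 in control, YA and OA, at 0.955-fold (0.865 to 1.05) and 1.03-fold (0.934 to 1.14). HOXC4 had 411, 417 and 414 counts and HOXC8 had 202, 217 and 203, both at a log2 fold change of 0.26 in OA, just short of the threshold. HOXC6, a gene of the developing mammary gland, had 354, 420 and 333 counts and was at 1.19-fold in YA (1.03 to 1.37). HOXC13, the hair keratin regulator, had 402, 385 and 262 counts. OA was its low library, at 0.777-fold (0.662 to 0.909), with YA at 0.961-fold (0.833 to 1.11). HOXC9 had 214, 177 and 175 counts, HOXC11 had 215, 183 and 159, and HOXC12 had 243, 221 and 167. Of these tail-ward genes HOXC9 was at 0.830-fold in YA and HOXC12 at 0.819-fold in OA, both with intervals that held 1.

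The non-coding genes that lie among the HOX genes had few counts. Of 20 listed, 19 were in the table, and 8 had a mean of at least 20. In YA 5 of the 8 were at least 1.2-fold higher than control and 0 lower, with a median log2 fold change of 0.45, and in OA 2 were higher and 2 lower, with a median of 0.09. All but HAGLR had means under 100. Of the 3251 genes tested with a mean of 20 to 100, 1097 were higher and 919 lower in YA, and 1013 and 1145 in OA. For the lists that follow, the shares of all genes tested were 17.4% higher and 16.4% lower in YA, and 21.1% and 21.5% in OA. HOXB-AS3, which lies within HOXB, had counts of 33, 66 and 43 in control, YA and OA, at 1.97-fold in YA (1.30 to 3.15). It was the only one of the 8 with an interval wholly beyond 1.2-fold in a comparison with control. HOXB-AS1 had 39, 60 and 28 counts and was at 1.53-fold in YA (1.01 to 2.37). HOXA-AS2 had 43, 62 and 42, HOXC-AS1 had 22, 36 and 29, and HOXC-AS2 had 29, 38 and 29. Each of these 3 had its highest count in YA, with intervals that held 1. HOXC13-AS had 50, 45 and 23 counts, at 0.557-fold in OA (0.319 to 0.915), the library in which HOXC13 was also low. HOTAIR, the HOXC transcript known for its ties to Polycomb, had 30, 36 and 20, and HAGLR of the HOXD cluster had 280, 269 and 230, both with intervals that held 1. Without a stated use of strand, reads of an antisense gene and of the HOX gene it overlaps cannot be told apart.

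Among the protein-coding genes that flank the clusters, 7 were past the minimum. Of these, 0 passed 1.2-fold in YA in either direction, and 2 were higher and 1 was lower in OA, with median log2 fold changes of -0.07 and 0.04. The lower one was CALCOCO1, a coactivator that lies beside HOXC, with 1289, 1242 and 756 counts and 0.699-fold in OA (0.638 to 0.765).

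Among the 9 TALE cofactors of HOX proteins, 1 was at least 1.2-fold higher and 3 were lower in YA, and 1 was higher and 4 lower in OA, with medians of -0.10 and 0.01. PKNOX2 had counts of 156, 112 and 27 in control, YA and OA, at 0.722-fold (0.560 to 0.924) and 0.212-fold (0.132 to 0.312). MEIS3 had 272, 278 and 137, and was at 0.602-fold in OA (0.485 to 0.739). OA was the low library for both. PBX4 had 33, 71 and 36 and was at 2.12-fold in YA (1.41 to 3.37).

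Of 31 Polycomb genes, 3 stood at least 1.2-fold above control and 2 below in YA, and 1 above and 3 below in OA, with medians of -0.04 and 0.09. CBX2, a subunit that reads the Polycomb histone mark, had 907, 731 and 491 counts, at 0.645-fold in OA (0.577 to 0.721), and EZH1, a histone H3 lysine 27 methyltransferase, had 596, 861 and 572, at 1.45-fold in YA (1.30 to 1.61). Of 16 Trithorax genes and H3K27 demethylases, 4 were at least 1.2-fold higher in YA and 0 lower, and 0 passed in OA, with medians of 0.16 and 0.02. Those in YA included the demethylase KDM6B, with 1230, 1655 and 1146 counts and 1.35-fold in YA (1.25 to 1.45), and the methyltransferase KMT2B, with 1636, 2185 and 1492 and 1.34-fold (1.26 to 1.43).

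Of 12 genes of retinoic acid signalling past the minimum, 2 were at least 1.2-fold higher and 5 lower in YA, and 6 were higher and 2 lower in OA, with medians of -0.09 and 0.21. The receptor RARB had 89, 58 and 257 counts, at 0.658-fold in YA (0.461 to 0.920) and 3.41-fold in OA (2.69 to 4.43). The receptor RXRG had 708, 487 and 16, at 0.0284-fold in OA (0.0153 to 0.0440). RDH10, which makes retinal from retinol, had 393, 205 and 294, at 0.524-fold in YA (0.440 to 0.621). Whether these genes bear on the HOX levels was not tested.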

How the data were processed

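Gene counts of 3 A375 libraries were analysed. Per the labels, an Agilent SureSelect kit served for the poly(A) libraries, which were read on an Illumina NovaSeq, and bcl2fastq made the read files. The values deposited by the authors are whole-number gene counts without normalisation. The submitters' processing notes list STAR 2.5.1b, featureCounts, R 3.6.1 and hg38. The use of strand, the annotation release and the settings are not given in the sources used here. The study's methods name DESeq2 and a cutoff of 1.2, read here as a linear fold.

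Size factors (median of ratios) were taken from DESeq2 1.42.0 run in R 4.3.3, and counts were scaled by them (1.06 for control, 1.06 for YA and 0.891 for OA). Folds of single genes are ratios of normalised counts after a pseudocount of 1, over genes with a mean of at least 20. Folds of sums and all intervals use no pseudocount. Intervals for folds and shares are 95% Clopper-Pearson intervals, those of TPM are exact Poisson intervals, and 3 counts were taken as the limit that a count of 0 allows. All of these cover counting error only, since each group was 1 culture and 1 library. Reads that carry no molecular identifier can be copies of each other, which the intervals do not allow for. TPM used exon lengths of GENCODE 29 on GRCh38, in which 57433 of 58037 identifiers and all 39 members were found without their version. The counts may rest on another release. Homeobox segments were read from its transcripts, in place of RefSeq proteins, which were not used here.

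Of the members, 25 have exon bases that overlap another gene. With 1 library per group no model was fitted and edgeR 4.0.16 served for scaling only. Alternatives were other scalings, filters, thresholds and a pseudocount of 5. The members, the context lists and the naming rule were chosen with earlier results of these data known. A member past the minimum and some homeobox segments are not reported here on their own. The other members past the minimum and all non-coding HOX cluster genes past it were named, and from each other list up to 3 genes with the largest change among those whose interval lay wholly beyond 1.2-fold against control. Markers were named from fixed lists, as examples chosen after their values were seen. The fold and interval steps were tested on data drawn with known answers. The other software was matplotlib 3.10.9, scipy 1.17.1, pandas 2.3.3, numpy 2.4.6 and Python 3.11.15.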

Additional observations from a re-analysis of the deposited data

How the results depend on the processing

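No paired analysis was possible because each group had 1 library, and leaving out a library was not possible for the same reason. A pseudocount of 5 and scaling by TMM or by the total kept every count of members within 1.5 times and every cluster sum inside its interval. Besides the position sums named below, other values near no change crossed it. The HOXB sum in YA went from 1.01 to 0.918 (0.880 to 0.959) without HOXB9, and the sum of all HOX genes in YA from 0.986 to 1.01 without HOXB2. HOXD for YA against OA went from 0.923 to 1.01 without HOXD13, and HOXC in OA from 1.01 to 0.998 with TMM. With no filter, the median log2 fold change of the members went from -0.07 to 0.003 in YA, and from 0.05 to -0.01 for YA against OA.

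Counts of members past the threshold, given as higher and lower, moved with the threshold and the filter. At 2-fold they were 0 and 1 for YA against control, 0 and 0 for OA against control, and 0 and 1 for YA against OA. The share of all genes past 2-fold was not taken. With the interval wholly beyond 1.2-fold the member counts were 2 and 1, 1 and 1, and 3 and 0, beside the shares given above. With a minimum mean of 100, 1 member was higher in OA and 1 was lower in YA than in OA, beside 18.2% and 19.2% of all genes kept. With no filter and 38 members kept, 12 were higher in YA, 7 higher in OA and 7 lower in YA than in OA, beside 30.0%, 25.9% and 25.0% of all genes kept. Over the 12 members whose exons overlap no other gene the counts were 4 and 0, 1 and 4, and 3 and 1. The shares of all genes tested were 17.4% and 16.4%, 21.1% and 21.5%, and 23.0% and 21.5%.

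Without the most counted member, HOXB was at 1.08-fold of control in YA and 1.35-fold for YA against OA, and HOXD at 1.13-fold in YA. Added after the data had been seen, leaving out HOXB9 gave 0.918 for HOXB in YA and 1.16 for YA against OA, and leaving out HOXB8 gave 0.834 in OA. By position, the sum of groups 9 to 13 turned below 1 without HOXB9, at 0.942 in YA and 0.978 for YA against OA. Groups 1 to 3 turned above 1 in YA without HOXB2, at 1.04, and stood at 0.937 in OA. Groups 4 to 8 without HOXB8 stood at 0.95 in OA and 1.04 for YA against OA. At a minimum mean of 100, the cofactors past 1.2-fold numbered 2 in YA, 3 in OA and 2 for YA against OA. PBX4 and PKNOX2 then dropped out of the 9 cofactors. The non-coding cluster genes numbered 0 in each comparison, but only 1 of them, HAGLR, was kept. The other homeobox genes numbered 5 in YA, and how many were kept was not taken. Of all genes kept, 12.6% were higher and 13% lower in YA, and 18.2% and 17.4% in OA. For YA against OA the shares were 17.8% and 19.2%. The stricter minimum leaves fewer genes; otherwise the cause was not tested. Members with fewer than 50 counts a library (HOXA2, HOXA4, HOXA6, HOXA13 and HOXD10) have wide intervals, and changes near 1.2-fold were not detectable there.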

Other observations

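Homeobox genes outside the clusters that also mark position were measured in the same libraries. With 23 of them past the minimum, 5 stood at least 1.2-fold above control and 3 below in YA, and 6 above and 7 below in OA, with median log2 fold changes of 0.00 and 0.06. The shares of all genes tested were 17.4% above and 16.4% below in YA, and 21.1% and 21.5% in OA. The median size of a log2 fold change of these homeobox genes was 0.42 in OA, against 0.18 for the HOX genes and 0.21 for all genes tested. In YA it was 0.19, against 0.24 and 0.17. LMX1B, which patterns the dorsal limb, had counts of 33, 53 and 8 in control, YA and OA, at 0.311-fold in OA (0.115 to 0.638). BARX1, a gene of stomach and jaw mesenchyme, had 232, 259 and 9, at 0.0506-fold in OA (0.0209 to 0.0893). TSHZ3 had 14, 22 and 33, at 2.68-fold in OA (1.46 to 5.68). The difference between these genes and the HOX genes was not tested.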
